A study of Mus musculus with 8 samples.

Results

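Transcripts of 10 secreted proteins, ligands of the TGF-beta superfamily and their regulators, were compared in activated muscle stem cells (ASCs) that were wild-type or mfn2-/-. The genes were Tgfb1, Tgfb2, Tgfb3, Inhba, Inhbb, Mstn, Bmp4, Fst, Fstl1 and Bmp1, taken by symbol from a table of 18877 genes, and all 10 were present. The genes from Tgfb1 to Bmp4 in this order encode ligands. Fst (follistatin) binds and blocks activins and myostatin, Fstl1 encodes a secreted glycoprotein related to follistatin, and Bmp1 is a secreted metalloprotease that is not a ligand despite its name. Each animal carried a mitochondrial Dendra2 reporter allele switched on through Pax7-CreERT2, a Cre that tamoxifen activates in muscle stem cells, so that these cells and their progeny are marked. Tamoxifen was injected at 75 mg/kg on each of 5 days. Barium chloride (50 µL of 1.2%) was put into the tibialis anterior 2 days after the last dose, and living CD34-, Dendra2+ cells were sorted after another 2 days. The mfn2-/- group also carried floxed Mfn2, the gene of the outer mitochondrial membrane fusion protein mitofusin 2, and the controls were labelled wild-type. There were 4 libraries per group, and the labels give no age or sex. They do not say whether each library came from a separate animal, so the p-values measure only the spread between these libraries, which may be in part technical.

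Ligands of this superfamily are secreted dimers that bring together type I and type II receptor kinases. TGF-betas, activins and myostatin act mainly through SMAD2 and SMAD3, and BMPs through SMAD1, SMAD5 and SMAD9. Activin A is a dimer of the Inhba product and activin B a dimer of the Inhbb product. In skeletal muscle, myostatin restrains muscle mass and follistatin opposes it, and TGF-beta is best known for driving matrix production by fibroblastic cells.

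Values are normalized reads, that is, reads divided by a size factor for each library. The libraries held 1880464 (wild-type replicate 1) to 7508215 (wild-type replicate 4) reads assigned to genes, and 1 read was worth 0.534 to 2.27 normalized reads. The level of Mfn2 was 229 ± 19.98 in wild-type and 126 ± 31.4 in mfn2-/- cells (SD, n = 4 per group), with no overlap between the groups and a limma adjusted p of 0.0848. Y-linked genes had reads in replicates 3 and 4 of wild-type and in replicates 1 and 2 of mfn2-/- cells and had none in the other libraries. Each group held 2 libraries of either kind, so each change was also computed within each kind. The libraries of a group thus did not all come from the same animal, though those of the same kind may have. The shallowest library of each group, wild-type replicate 1 and mfn2-/- replicate 4 (2269009 reads), had no Y-linked reads, so depth differs along with this split. Changes are differences of mean log2(normalized reads + 1), mfn2-/- minus wild-type. For weak genes these can be smaller or larger than the changes that edgeR gave on whole reads. They were -3.90 against -4.00 for Inhba, but 1.76 against 0.90 for Tgfb1 and 3.54 against 2.67 for Fst, which had wild-type libraries at 0. A gene was called at a limma adjusted p under 0.05, adjusted over the 11754 genes that could be tested, whose median change was -0.16.

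Of the 10 genes, 5 were called. Inhbb rose in mfn2-/- ASCs, and Inhba, Fstl1, Bmp1 and Tgfb3 fell. Among all genes tested, 10.4% were called, 3.99% as higher and 6.36% as lower. All 5 were also called by edgeR on whole reads, which called 9.85% of all genes. The groups did not overlap for the same 5 genes of the 10, and they did not for 19.5% of all genes, 7.36% with mfn2-/- higher and 12.2% with mfn2-/- lower. Tgfb1, Tgfb2, Mstn, Bmp4 and Fst did not pass the test. All 10 passed the filter on low values (8 libraries averaging 10 normalized reads or more), and their median change was -0.39.

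**Figure D1:**
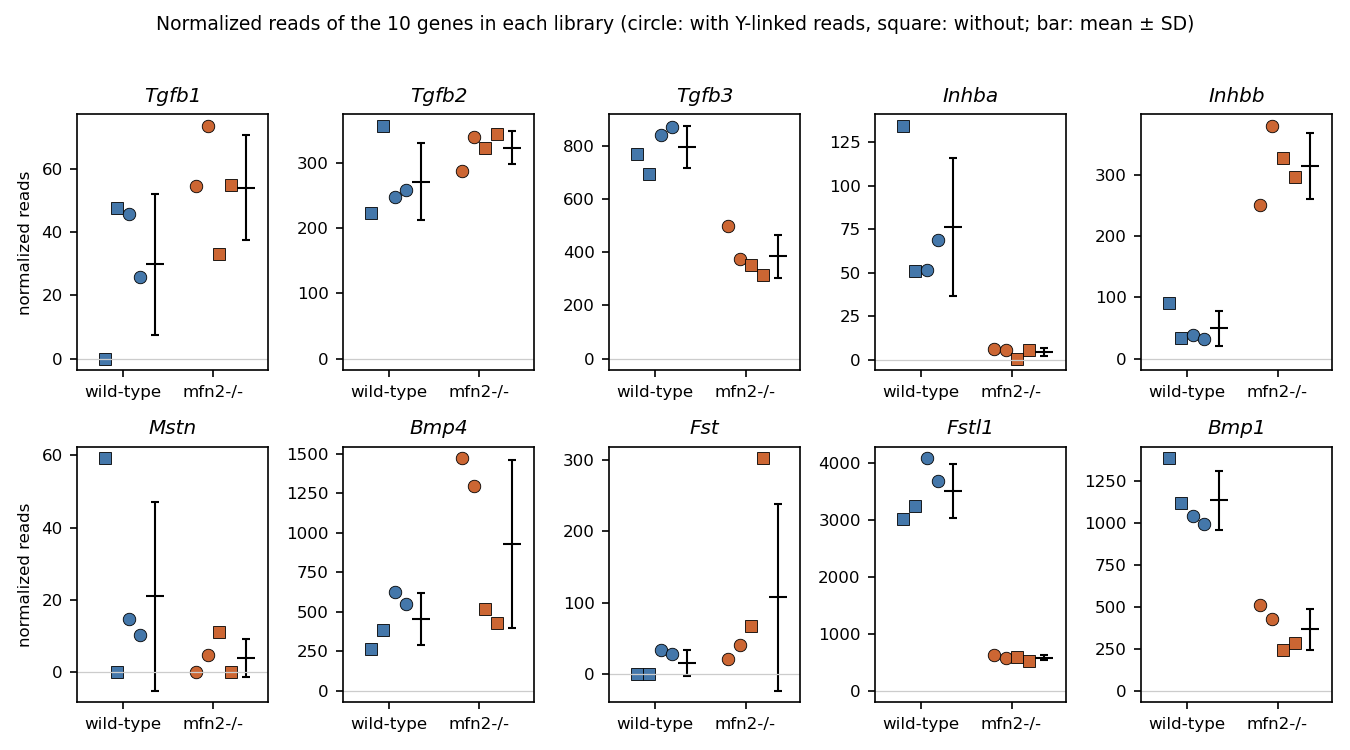
Normalized reads (vertical axis of each panel) of the 10 genes in each of the 4 wild-type (blue) and 4 mfn2-/- (orange) libraries, as circles where Y-linked reads were present and squares where they were not, with the mean ± SD beside each group. The groups stand apart for Tgfb3, Inhba, Inhbb, Fstl1 and Bmp1, and the highest mfn2-/- values of Bmp4 (1293 and 1471) are both circles.

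The beta subunits of activin moved in opposite directions. Inhba (GENCODE M21 on GRCm38, chromosome 13, 16011851 to 16031621, plus strand) encodes the beta A subunit and Inhbb (chromosome 1, 119415465 to 119422248, minus strand) the beta B subunit. The 250 bases before the RefSeq start of each gene (GRCm38.p6) are shown because these paralogues moved apart. The Inhba sequence (chr13:16011601-16011850, plus strand) has a GC content of 43.2% with 3 CpG dinucleotides, and capitals mark TATAAA, which lies 91 to 86 bases before the start. The Inhbb sequence (chr1:119422249-119422498, minus strand) has a GC content of 68.0% with 21 CpG. The medians over 32851 mouse promoters of this length were 52.4% and 6.
Inhba: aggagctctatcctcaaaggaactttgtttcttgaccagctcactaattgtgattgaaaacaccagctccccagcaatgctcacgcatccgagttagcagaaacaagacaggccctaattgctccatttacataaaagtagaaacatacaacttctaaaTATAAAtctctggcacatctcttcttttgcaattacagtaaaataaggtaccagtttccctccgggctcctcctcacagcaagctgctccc
Inhbb: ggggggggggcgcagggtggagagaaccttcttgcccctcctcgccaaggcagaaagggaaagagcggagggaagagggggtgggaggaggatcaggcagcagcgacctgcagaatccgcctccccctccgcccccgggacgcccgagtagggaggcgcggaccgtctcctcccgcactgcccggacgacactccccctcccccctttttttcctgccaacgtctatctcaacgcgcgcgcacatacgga
On both strands, 6 motifs were searched: the HIF core ACGTG, found in 16.6% of all promoters, the E-box CAGCTG (13.0%), the AP-1 site TGANTCA (6.75%), the CRE site TGACGTCA (1.55%), the TATA box TATAAA (12.4%) and the SMAD box CAGAC (42.2%). The Inhbb window held none of them and the Inhba window held TATAAA alone.

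Inhba gave 134, 50.8, 51.4 and 68.9 normalized reads in wild-type replicates 1 to 4 and 6.0, 5.53, 0.737 and 5.50 in the mfn2-/- replicates. The lowest wild-type library lay well above the highest mfn2-/- library, and the mfn2-/- values rest on 9, 7, 1 and 3 reads. The mean was 17.2-fold lower, 4.44 ± 2.48 against 76.3 ± 39.5 (SD, n = 4), and the log2 change was -3.90 with SE 0.97 and a limma adjusted p of 0.0215. The limma call was lost without wild-type replicate 1 (adjusted p = 0.0548), 3 (0.0622) or 4 (0.0722), and edgeR gave an adjusted p of 0.0155 on all 8 libraries. Antisense genes overlap Inhba, as they do Fst, Bmp4 and Tgfb2, and the strand setting of the counting is not given in the sources used here, so reads of such partners cannot be told apart.

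Inhbb gave 91.0, 34.2, 39.2 and 32.1 normalized reads in the wild-type replicates and 251, 379, 327 and 297 in the mfn2-/- replicates. Wild-type replicate 1 was the highest of its group, and each mfn2-/- library was above it. The mean rose 6.38-fold, from 49.1 ± 28.1 to 313 ± 53.9 (SD, n = 4), a rise of 2.77 in log2 units with SE 0.42 and a limma adjusted p of 0.00102. Of all genes tested, 0.910% had a larger rise. Inha, whose product pairs with either beta subunit to form inhibin, had at most 6 reads in any library and was not tested.

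Per kilobase of exon, the beta subunits were at like levels in wild-type ASCs, with an Inhba to Inhbb ratio of 1.07 ± 0.25 (SD, n = 4) and a range of 0.874 to 1.43. In mfn2-/- ASCs this ratio was 0.0099 ± 0.0061, and Inhbb made up 98.4% to 99.9% of the beta subunit level per length, against 41.1% to 53.4% in wild-type. The sum of both was 5.63 ± 2.87 RPKM (reads per kilobase of exon, scaled to the library's total) in wild-type and 18.6 ± 3.53 in mfn2-/- ASCs, with the highest wild-type library at 9.91 and the lowest mfn2-/- library at 14.5. These ratios and sums are descriptions with no test.

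**Figure D2:**
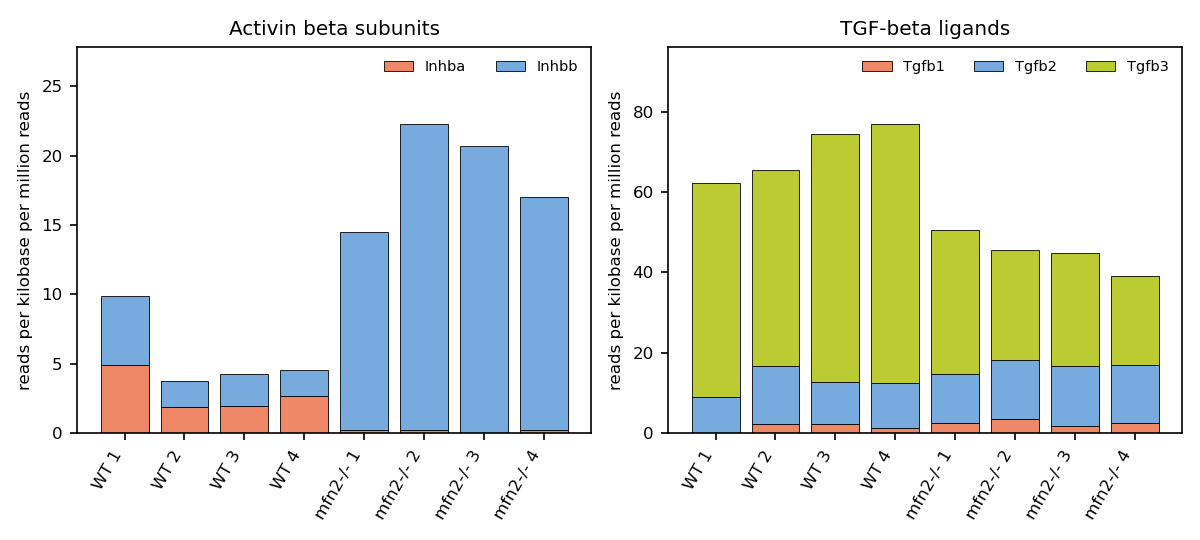
RPKM (stacked bars, vertical axis from 0) of the activin beta subunits (left) and of the TGF-beta ligands (right) in each wild-type (WT) and mfn2-/- library. Inhbb makes up 41.1% to 53.4% of the wild-type beta subunit bars and at least 98.4% of the mfn2-/- bars, and the Tgfb3 portion of the TGF-beta bars is smaller in each mfn2-/- library than in any wild-type library.

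Among the TGF-beta ligands, Tgfb3 fell and the other two did not pass the test. Tgfb3 (chromosome 12, 86056745 to 86079041, minus strand) gave 771, 696, 844 and 875 normalized reads in wild-type and 501, 374, 354 and 313 in mfn2-/- libraries. No mfn2-/- library reached the wild-type range. The mean went from 796 ± 79.8 to 386 ± 80.8 (SD, n = 4), or -1.06 on the log2 scale with SE 0.21, at an adjusted p of 0.00614 by limma and 0.0197 by edgeR, and 25.7% of all genes tested had a larger fall. The protein-coding gene Ttll5 lies across Tgfb3 on the other strand.

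Tgfb2 (chromosome 1, 186622792 to 186705989, minus strand) gave 223, 357, 247 and 259 normalized reads in wild-type and 287, 339.7, 324 and 345 in mfn2-/- libraries. The groups overlapped, and the log2 change of 0.27 had a 95% interval of -0.25 to 0.79 (limma adjusted p = 0.523). Tgfb1 (chromosome 7, 25687002 to 25705077, plus strand), the most studied TGF-beta in fibrosis, gave 0, 47.7, 45.7 and 25.6 in wild-type and 54.7, 73.5, 33.2 and 55.0 in mfn2-/- libraries. The 0 belongs to wild-type replicate 1, the shallowest library, where a count of 0 allows up to 6.82 normalized reads. The log2 change of Tgfb1 was 1.76 with an interval of -0.81 to 4.32 (limma adjusted p = 0.395), which spans no change and a large rise. Per length, Tgfb3 made up 81.6% ± 5.00 of the TGF-beta sum in wild-type and 62.7% ± 6.05 in mfn2-/- ASCs, and the sum was 69.7 ± 6.97 and 45.0 ± 4.60 RPKM (SD, n = 4).

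Fstl1 (chromosome 16, 37776873 to 37836514, plus strand) had the smallest p of the 10 genes and ranked 21 of all genes tested. It gave 3009, 3252, 4081 and 3680.2 normalized reads in wild-type and 626, 567, 601 and 526 in mfn2-/- libraries. The mfn2-/- libraries were close together and all far below wild-type. The mean was 6.04-fold lower, 580.1 ± 43.5 against 3506 ± 473 (SD, n = 4), or -2.59 on the log2 scale, with SE 0.17 and a limma adjusted p of 5.89e-07.

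Fst (chromosome 13, 114452290 to 114458951, minus strand), the activin and myostatin antagonist, gave 0, 0, 34.3 and 27.8 normalized reads in wild-type and 20.7, 40.3, 67.8 and 302 in mfn2-/- libraries. The highest value belongs to mfn2-/- replicate 4, where it rests on 165 reads, and the groups overlapped. The log2 change of 3.54 had an interval of 0.48 to 6.60 and a limma adjusted p of 0.138. In the libraries with Y-linked reads the means were 31.0 in wild-type and 30.5 in mfn2-/- cells, and in those without they were 0 and 185. A count of 0 allows up to 6.82 and 3.11 normalized reads in these wild-type libraries. The interaction of genotype with this split had a limma adjusted p of 0.115 for Fst, and the adjusted p was under 0.05 for 1.47% of all genes and for 0 of the 10.

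Bmp1 (chromosome 14, 70474558 to 70520234, minus strand) encodes the procollagen C-proteinase, which trims fibrillar procollagens and activates lysyl oxidase. It gave 1385, 1117, 1039.6 and 997 normalized reads in wild-type and 509, 425, 244 and 286 in mfn2-/- libraries, with a clear gap between the groups. The mean was 3.10-fold lower, 366 ± 123 against 1135 ± 174 (SD, n = 4), or -1.68 on the log2 scale, with SE 0.25 and a limma adjusted p of 0.000917. The fall was -1.13 in libraries with Y-linked reads and -2.23 in those without, and the limma adjusted p of this interaction was 0.157. Of 13 tested genes of known Bmp1 substrates and of the enhancers of its activity, 12 were called lower and 0 higher. Their median log2 change was -4.39. Over all genes tested, 6.36% were called lower and 3.99% higher. This list was chosen with earlier results of these data known, and a link to the fall of Bmp1 was not tested. Col1a1 and Col1a2, the chains of type I collagen, had log2 changes of -8.36 and -7.79, Col11a1 -8.40 and Col2a1 -7.13, and Col7a1 was not called (-0.64, limma adjusted p = 0.609). Col1a1, Col1a2 and Col3a1 are also on the list of fibroadipogenic markers and Col11a1 on that of tenocyte markers.

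Bmp4 (chromosome 14, 46383520 to 46390669, minus strand), a ligand that signals through SMAD1, SMAD5 and SMAD9, gave 262, 388, 627 and 551 normalized reads in wild-type and 1471, 1293, 517 and 427 in mfn2-/- libraries. The protein-coding Gm15217 lies across it on the other strand. The mfn2-/- values fall into a high and a low pair, of which the low pair lies inside the wild-type range. In log2 units the change was 0.89 with SE 0.40 and a limma adjusted p of 0.186. Libraries with Y-linked reads had more Bmp4 in either group, by 1.22 on the log2 scale (limma adjusted p = 0.0468), and 0.221% of all genes tested were called by this split in either direction, 26 genes of which 14 were higher with Y-linked reads, all 4 Y-linked genes examined included. Xist was lower with Y-linked reads, by -7.93 on the log2 scale (limma adjusted p = 0.00108). With the presence of Y-linked reads as a term in the model, the Bmp4 genotype change had a limma adjusted p of 0.0181. Sex and any other property that the same libraries share cannot be told apart here.

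Mstn (chromosome 1, 53061640 to 53068079, plus strand), the gene of myostatin, had few reads. It had 26, 0, 18 and 19 reads in wild-type and 0, 6, 15 and 0 in mfn2-/- libraries, or 59.1, 0, 14.7 and 10.2 against 0, 4.74, 11.1 and 0 normalized reads. Both groups held libraries at 0 and the ranges overlapped. The log2 change of -1.81 had an interval of -4.96 to 1.34 (limma adjusted p = 0.481), so that both a large fall and a rise lie within it.

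**Figure D3:**
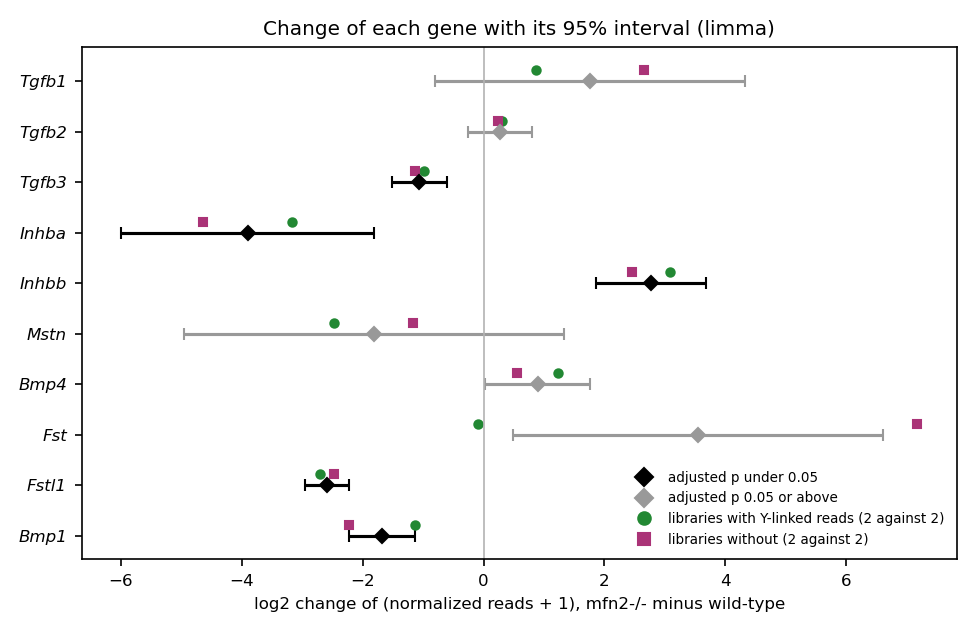
Log2 change of each gene (horizontal axis, mfn2-/- minus wild-type, on normalized reads + 1) with its 95% interval from limma, in black where the adjusted p was under 0.05. Green circles and purple squares are the changes within the libraries with and without Y-linked reads, which lie apart most for Fst (-0.09 and 7.17, the latter against 2 wild-type libraries at 0) and have the same sign for the other genes.

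Levels per length set the genes in an order. In wild-type ASCs, Fstl1 was the highest, with a median of 172 RPKM over 4 libraries, followed by Tgfb3 (57.4), Bmp4 (50.9), Bmp1 (29.3) and Tgfb2 (10.8). Inhba (2.34), Inhbb (2.09), Tgfb1 (1.75), Mstn (1.14) and Fst (0.755) were low, and each of these overlapped its neighbour in range. In mfn2-/- ASCs, Bmp4 was the highest (102), followed by Fstl1 (29.7), Tgfb3 (27.8), Inhbb (18.7), Tgfb2 (14.4), Bmp1 (9.80), Fst (3.07), Tgfb1 (2.62), Mstn (0.217) and Inhba (0.21). In wild-type, Fstl1 stood clear of Tgfb3, Bmp1 of Tgfb2 and Tgfb2 of Inhba, and Bmp4 overlapped both of its neighbours. In mfn2-/- ASCs, neighbours did not overlap between Bmp4 and Fstl1, Tgfb3 and Inhbb, and Tgfb1 and Mstn, and the other neighbours did. With the longest transcript in place of all exons, places changed among Tgfb1, Inhba, Inhbb, Mstn and Fst.

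The other genes of the pathway showed both directions. Of 92 tested genes on the pathway lists together, 6 were called higher and 31 lower, and the count of higher calls was 2 without mfn2-/- replicate 1 or 2 and 3 without wild-type replicate 3. Over all genes tested, 3.99% were called higher and 6.36% lower. Among 9 other ligands tested, 0 rose and 4 fell: Bmp5 (331.7 ± 81.3 to 3.36 ± 6.72 normalized reads, log2 change -7.38), Gdf10 (-3.46), Bmp3 (-4.72) and Bmp7 (-4.00). The mfn2-/- libraries held 3 reads in all for Bmp3 and for Bmp7, and Bmp6 (-0.30) and Bmp2 (0.38) were not called. Without wild-type replicate 3 or 4 the limma adjusted p of Bmp7, Gdf10 and Bmp3 rose to as much as 0.132, 0.102 and 0.0602.

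Of 12 receptor genes, 1 rose and 1 fell, counts near the shares over all genes tested (3.99% and 6.36%). Both encode the TGF-beta receptor. Tgfbr1, the type I kinase, rose from 427 ± 117 to 742 ± 70.9 normalized reads (log2 change 0.83, limma adjusted p = 0.0325, but 0.102 without wild-type replicate 3). Tgfbr2, the type II kinase that binds the ligand, fell from 869.9 ± 179 to 390.03 ± 79.8 (-1.16, limma adjusted p = 0.00733). The most abundant receptor genes that were not called were Tgfbr3, the betaglycan co-receptor (-0.28), and Bmpr2 (0.51).

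Antagonists and latency proteins had 0 genes called higher, while 3.99% of all genes tested were called higher and 6.36% lower. Of 11 extracellular antagonists, 5 fell, with a list median of -2.16, among them Chrdl1, which binds BMPs (191.9 ± 51.6 to 16.2 ± 13.2 normalized reads, log2 change -4.25), Bmper (-4.18) and Tsku (-3.29). Leaving out 1 wild-type library raised the limma adjusted p of Chrdl1, Bmper and Tsku to as much as 0.0601 (replicate 4), 0.0904 (replicate 3) and 0.144 (replicate 2). Of 12 genes for latency and activation, 4 fell, with a list median of -1.05. These were Ltbp3, which tethers latent TGF-beta (1133 ± 126 to 514 ± 114), Thbs1, an activator of latent TGF-beta (7880 ± 2340 to 3445 ± 262), and the proprotein convertases Pcsk6 (-5.01) and Pcsk5 (-0.96). The call of Pcsk5 was lost without wild-type replicate 3 (limma adjusted p = 0.0536), and Twsg1 (-0.26), Crim1 (-0.32), Ltbp4 (-0.44) and Ltbp1 (-0.20) were not called.

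Of 16 SMADs and their partners, 3 rose and 1 fell, beside 3.99% and 6.36% of all genes tested. The SMAD corepressors Tgif1 (log2 change 1.84) and Skil (1.57) and the inhibitory Smad7 (1.06) were higher in mfn2-/- ASCs, Tgif2 was lower (-2.57), and Ski (0.25) and Smad5 (0.70) were not called. On the list of genes that respond to SMAD2 and SMAD3, 2 of 15 rose, Skil and Smad7, and 4 fell, the matrix genes Postn (-5.43) and Tgfbi (-4.12), the matricellular Ctgf (-1.85) and the oxidase Nox4 (-4.76). Acta2 (-0.61) was not called, and the list median was -0.02. On the list for SMAD1, SMAD5 and SMAD9, 3 of 11 rose, Id2 (2.18), Id3 (1.37) and Smad7, and 0 fell, with a median of 0.50, while Id1 (0.14) and Hey1 (-0.17) were not called. The limma adjusted p of Smad7, Id2 and Id3 rose to as much as 0.0948 (without mfn2-/- replicate 1), 0.0901 (without mfn2-/- replicate 2) and 0.0662 (without wild-type replicate 3). With each of the 8 libraries left out in turn, the call was lost 6 times for Bmp7, Tgfbr1 and Tsku, 5 times for Smad7, 4 times for Gdf10, Id2 and Id3, 3 times for Chrdl1 and Bmper, and 2 times for Bmp3 and Pcsk5.

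The change of some named pathway genes differed between libraries with and without Y-linked reads. It was 2.21 with and 0.93 without them for Skil (interaction, limma adjusted p = 0.0142), 2.29 and 0.45 for Id3 (0.0253), -2.73 and -0.97 for Ctgf (0.00273) and -0.67 and -1.62 for Thbs1 (0.0148). For Col3a1, on the list of Bmp1 substrates, it was -3.72 and -5.15 (0.025). The interaction passed this threshold for 1.47% of all genes tested. Of the uncalled genes, Tgfbr3 (0.16 and -0.73, 0.0293) and Acta2 (-1.52 and 0.31, 0.0452) differed as well.

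**Figure D4:**
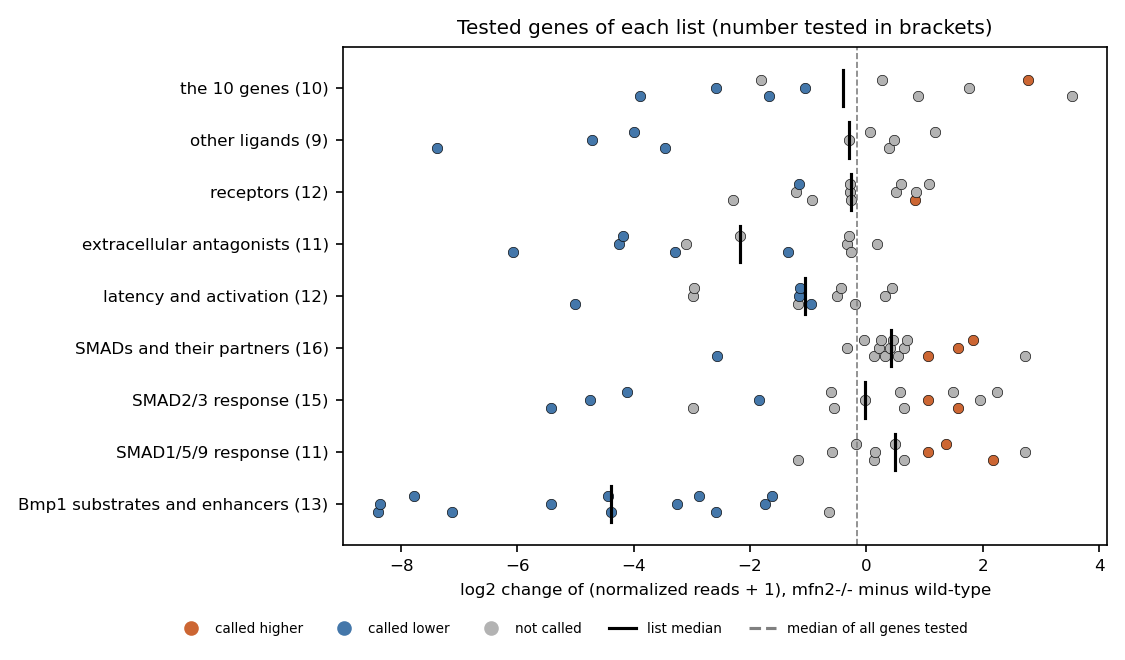
Log2 change (horizontal axis, mfn2-/- minus wild-type) of each tested gene of the 10 genes and of 8 pathway lists, in orange where called higher, blue where called lower and grey where not called, with the median of each list as a black bar. The dashed line is the median of all genes tested (-0.16), and the substrates and enhancers of Bmp1 lie farthest to its left, at a median of -4.39.

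Markers of other cell types differed between the groups. The fibroadipogenic markers are genes of the fibroblastic cells of muscle. They summed to 5.03% to 6.68% of the library total in wild-type and 0.169% to 0.280% in mfn2-/- ASCs, led by Col1a1 and Col1a2. With the 10 most abundant genes of the table left out of sum and total, the means were 2.21% and 0.250%. On this list, which is not independent of these data, 14 of 16 were called lower. Dpt (log2 change -1.66) and Ly6a (2.08) were not called. Over all genes tested, 6.36% were called lower and 3.99% higher. The tenocyte markers summed to 1.47% ± 0.42 and 0.0178% ± 0.0040 (SD, n = 4), and 11 of 11 were called lower. Muscle stem cell and myoblast markers, led by Sdc4 and Des, summed to 0.258% to 0.351% in wild-type and 0.674% to 1.03% in mfn2-/- ASCs. Of their 14 genes, Myod1, Sdc4, Des and Vcam1 were called higher and 0 lower, with a list median of 0.09, and Pax7, which defines the cell, gave 662 ± 45.9 and 715 ± 96.1 normalized reads (limma adjusted p = 0.78). A two-sided exact permutation test gave p = 0.0286 for each of these 3 lists, the smallest it can give with 4 against 4 libraries, and 0.0514 after adjustment over 9 marker lists. The mural sum also had this p (0.166% and 0.284%), led by Des, while its genes went both ways, with Des and Abcc9 called higher, Cspg4, Pdgfrb and Mcam called lower and a list median of -0.78. The erythroid sum had it too (0.00114% and 0.000414%). All marker lists were chosen with earlier results of these data known. Their p-values therefore describe how the groups separate and are no independent evidence.

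Macrophage and monocyte markers were at or under 0.00604% of the total in every library, and Emr1 was at 0 in all wild-type and C1qb in all mfn2-/- libraries. Neutrophil markers were at or under 0.000752%, with S100a9, Mpo, Elane, Camp and Ngp at 0 in all wild-type and Ly6g in all mfn2-/- libraries, and Hba-a2 was at 0 in all wild-type libraries. The endothelial sum was 0.0392% and 0.0497% and the Schwann cell sum 0.0766% and 0.0550% in wild-type and mfn2-/- ASCs (exact permutation p = 0.171 and 0.0571). Fstl1, Bmp1, Tgfb3 and Inhba fell, as did most fibroadipogenic and all tenocyte markers. The log2 changes of Tgfb3 (-1.06), Bmp1 (-1.68), Fstl1 (-2.59) and Inhba (-3.90) were smaller in size than the medians of these lists (-5.94 and -8.40). Inhbb rose, as did Myod1, Sdc4, Des and Vcam1. The other 10 of the 14 muscle stem cell and myoblast markers were not called, and the list median was 0.09. Of the fibroadipogenic markers, 13 of 16 fell by more than Fstl1 (log2 change -2.59), as did 11 of 11 tenocyte markers. The part of either marker group in the changes of the 10 genes was not tested, and in bulk RNA fewer cells of a type and less RNA per cell cannot be told apart.

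**Figure D5:**
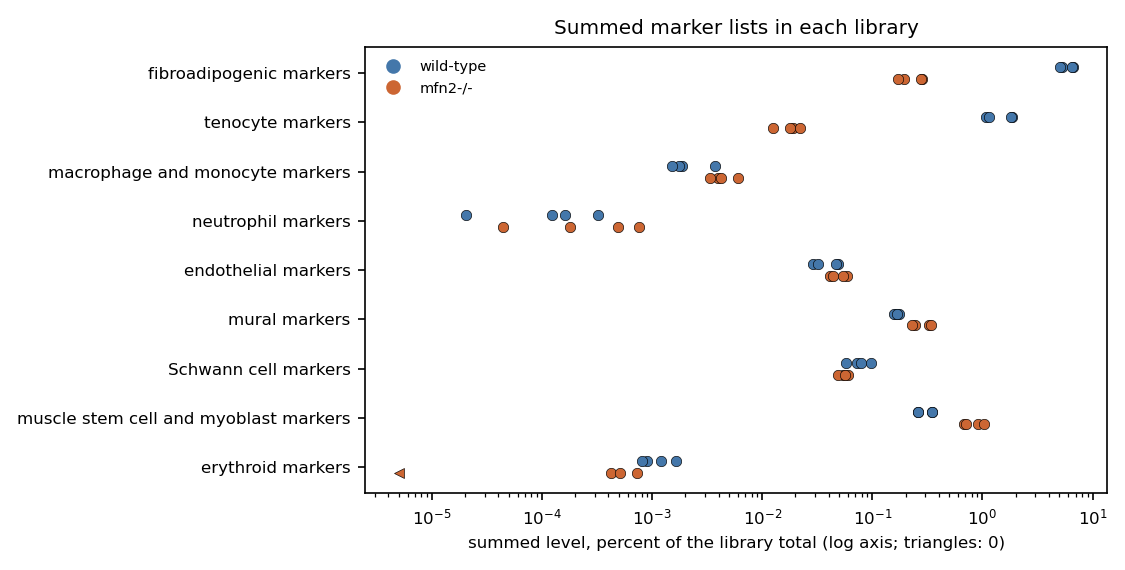
Summed level of each marker list as percent of the library total (horizontal log axis) in the 4 wild-type (blue) and 4 mfn2-/- (orange) libraries, with a triangle for a library at 0. The fibroadipogenic and tenocyte sums of all wild-type libraries lie above those of all mfn2-/- libraries, and the muscle stem cell and myoblast sums lie below.

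The genes with the most similar profile over the 8 libraries were found for each called gene among those with a mean of at least 100, by the root mean square (RMS) difference of centred log2 values. Those nearest to Fstl1 were Col5a2, Mmp2 and Lamb1, with RMS differences of 0.132, 0.189 and 0.207. Those nearest to Inhba were Adamtsl3, Col15a1 and Ecm2, at 0.496 to 0.567. The nearest to Inhbb were Tnfaip2, the myogenic factor gene Myod1 and Ell2, at 0.343 to 0.502. Atp8b2, Dpysl2 and Myh10 were nearest to Tgfb3 (0.133 to 0.152), and Clip2, Pofut1 and Tbc1d8b to Bmp1 (0.139 to 0.190).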

How the data were processed

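RNA of the sorted cells went into stranded low-input total RNA libraries, 4 wild-type and 4 mfn2-/-, which the authors sequenced. The deposited signal is the normalized read count of each gene, not on a log scale. The submitters' processing notes name Trim Galore, HISAT2, featureCounts and DESeq2 and the mouse build mm9. Every value of a library (100%) was a whole multiple of the same step within 0.01 read, so the authors had divided counts by 1 factor per library, and that step gave back whole reads.

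The main test was limma (3.58.1, R 4.3.3) with its intensity trend on log2 of value plus a pseudocount of 1, over 11754 genes averaging at least 10, two-sided, with Benjamini-Hochberg adjustment at 0.05. Single values were compared by exact permutation. Alternatives were edgeR 4.0.16 (TMM, quasi-likelihood, also with no filter) and DESeq2 1.42.0 on recovered reads, pseudocounts of 0.1 and 10, no filter or a mean of 50, other scalings, a replicate block, a term for Y-linked reads, no trend, library weights and each library left out. Leaving out both shallowest libraries was chosen after seeing the data. The tests were tested on simulated data.

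The 10 genes and all lists were chosen with earlier results of these data known, and the marker lists follow an earlier analysis that had read part of the study's list of changed genes. The text names all 10 genes, Mfn2, up to 4 called genes per direction of each pathway list by size of change, the 2 most abundant uncalled ones, the 3 nearest profiles and marker genes, and some items that this rule selects are not reported here. Symbols were matched by name to GENCODE M21 (16336, 86.5%), whose coordinates are given since the table has none. Promoters came from RefSeq (GRCm38.p6), with an entry for 7 of the 10 genes. Without molecular identifiers, floors of 3 reads cover counting error only.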

Additional observations from a re-analysis of the deposited data

Results flagged for a closer look

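Of 40 groups of 4 values examined (the 10 genes, Mfn2 and the marker sums in either genotype), 4 held a library whose gap to the nearest other was too large a share of the range by Dixon's 95% limit for 4 samples, where chance gives about 1 in 20, or 2. Inhba was at 0.737 normalized reads in mfn2-/- replicate 3, a single read, against 5.50 to 6.0 in the other mfn2-/- libraries. Inhbb was at 91.0 in wild-type replicate 1, the shallowest library, while its group otherwise lay at 32.1 to 39.2. Fst was at 302 in mfn2-/- replicate 4, the library with the fewest genes detected (9646), against 20.7 to 67.8 in the other mfn2-/- libraries. The macrophage and monocyte markers summed to 0.00372% in wild-type replicate 1, above the other wild-type libraries. The cause of each was not tested.

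The genotype change, in log2 units, differed between libraries with and without Y-linked reads in limma's interaction test for some of the pathway genes named, and for 1.47% of all genes tested. The change with Y-linked reads minus that without was 1.28 for Skil, 1.84 for Id3, -1.76 for Ctgf, 0.94 for Thbs1, 1.43 for Col3a1, 0.89 for Tgfbr3 and -1.83 for Acta2.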

How the results depend on the processing

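Of 225 values of the 10 genes under 23 alternatives, 215 kept their direction and side of the threshold, 6 lost the call, 4 gained one and 0 reversed. Fstl1, Inhbb and Bmp1 kept their call in each alternative run. Tgfb3 lost it without the intensity trend (limma adjusted p = 0.06), and Inhba with a pseudocount of 0.1 (0.0552), with the replicate block (0.0511) and without wild-type replicate 1, 3 or 4. Bmp4 gained a call with the term for Y-linked reads, library weights (limma adjusted p = 0.00306) and edgeR without a filter (0.00371), and Fst with the last alone (0.0266), so the count of the 10 genes called higher was 2, 2 and 3 there. It stayed at 1 when each library was left out, and the count called was 4 to 5. The genes called in all numbered 633 without the trend (113 higher, so 17.9% of calls against 38.5%) and 3037 with library weights (1398 higher, 1639 lower), and 671 to 1331 with each library left out (235 to 489 higher, 436 to 842 lower), fewest without wild-type replicates 3 (671) and 4 (749). Without both shallowest libraries, 1602 genes and 5 of the 10 were called. DESeq2 called 1738 genes against 1217. Quantile normalization moved the median change of all genes from -0.16 to 0.13. Pathway genes called numbered 21 without the trend, with 0 higher, and 11 higher with library weights, and 26 to 38 (2 to 6 higher) with each library left out.

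With the replicate block, 1043 genes were called. Same-numbered libraries had correlations of their deviations of -0.111 to 0.038, which show no pairing by number. Each such pair also differed in the presence of Y-linked reads. These values cannot tell whether same-numbered libraries shared a day or batch, and the labels do not say.

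Some uncalled pathway genes changed sign, with library weights Bmp6 (0.20), Twsg1 (0.11), Crim1 (0.13) and Hey1 (0.32), and without both shallowest libraries Bmp6 (0.030), Bmp2 (-0.15), Crim1 (0.19) and Hey1 (0.075). With 1 library left out the log2 changes ran from -0.36 to 0.040 for Hey1, -0.59 to 0.032 for Crim1 and -0.065 to 0.38 for Id1. With 1 library left out, the difference in marker sums, mfn2-/- minus wild-type, ran from 0.00163 to 0.00269 percentage points for macrophages, 0.0998 to 0.137 for mural, -0.0277 to -0.0147 for Schwann and -0.000835 to -0.000561 for erythroid markers, and its exact permutation p crossed 0.05 for these lists. Inhba, Mstn, Fst and Tgfb1 had 0 to 3 reads in some libraries. The causes were not tested.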
